A study of Mus musculus with 18 samples.

Results

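The genes described here are the 50 mouse genes whose symbols begin with Psma, Psmb, Psmc, Psmd, Psme, Psmf or Psmg followed by a number, out of 55098 genes with a value in the deposited expression files. The name pattern matched 54 symbols, and 4 of them, which the annotation marks as pseudogenes, were left out. By role they are 7 alpha and 7 standard beta subunits of the core particle, 5 alternative core subunits, 9 base and 8 lid subunits of the regulatory particle, 5 activator genes, 1 inhibitor and 7 assembly chaperones. The last member, Psmc3ip, carries the name but encodes a cofactor of meiotic recombination and is not a proteasome subunit. The rule itself uses gene names only.

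The proteasome is the barrel-shaped protease that degrades proteins tagged with ubiquitin. Rings of alpha subunits gate the barrel and rings of beta subunits hold its active sites, of which Psmb5 carries the chymotrypsin-like, Psmb6 the caspase-like and Psmb7 the trypsin-like activity. The regulatory particle caps the barrel: the ATPases of the base unfold the substrate and the lid removes the ubiquitin. In the early embryo, the proteasome takes part in clearing proteins that the egg supplied.

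The study measured messenger RNA in mouse embryos with Smart-seq2, a method that amplifies poly(A) RNA from very few cells, in 18 libraries of 7 groups. Each library came from a tube of 5 to 10 pooled embryos. The siRNA libraries are siEchs1 L2C, siCon L2C, siEchs1 E2C and siCon E2C, with 3 libraries each. siEchs1 is an siRNA against Echs1, the mitochondrial enzyme that hydrates short-chain enoyl-CoA molecules such as crotonyl-CoA, and siCon is the control siRNA. E2C stands for early 2-cell embryos, L2C is the label of the other collection point and is used here as the labels write it, and the genotype of these embryos is not given. The treatment libraries, with 2 in each group, come from WT embryos given sodium crotonate, sodium acetate or DMSO as zygotes and collected as early 2-cell embryos. Doses are not given. Values are FPKM, fragments scaled to transcript length and to the mapped fragments of the library.

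A first look at the promoters shows the letters that many members share. The 250 bases before the start were searched on both strands in RefSeq promoters of GRCm38.p6, in which 42 members have 45 promoters. The ETS-type motif CCGGAAG, read as CTTCCGG from the other strand, was in 14 of these 45 promoters (31.1%), against 6.95% of all 32526 promoters and 9.07% of the 20981 promoters of coding genes. Stretches of 40 bases are printed for members whose values are described further on, 5′ to 3′ on the gene's own strand, with the matching letters in capitals.
Psmd4, chr3:95042716-95042755, minus strand: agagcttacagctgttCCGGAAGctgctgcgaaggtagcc
Psmd2, chr16:20651610-20651649, plus strand: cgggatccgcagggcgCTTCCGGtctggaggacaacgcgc
Psmg1, chr16:95991006-95991045, minus strand: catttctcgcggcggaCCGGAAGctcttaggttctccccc
Psmc6, chr14:45329708-45329747, plus strand: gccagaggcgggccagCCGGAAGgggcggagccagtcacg
Psmd11, chr11:80428575-80428614, plus strand: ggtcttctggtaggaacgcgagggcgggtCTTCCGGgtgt
Psme3, chr11:101316090-101316129, plus strand: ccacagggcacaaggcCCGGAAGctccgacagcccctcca
Psmd4, Psmd2 and Psmg1 are among the members that rose at L2C after siEchs1, and Psmd11 is among those that fell, so the letters occur in both. Psmc6 and Psme3 were not called there.

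The antioxidant-response motif TGACNNNGC, which NFE2L1 and NFE2L2 are known to bind, was in 5 of the 45 promoters (11.1%), against 10.2% of all promoters. The members with it were Psmb5, Psmb6, Psmc6, Psmd9 and Psmd12, of which Psmb6 and Psmd9 rose at L2C after siEchs1 and the other 3 were not called. The windows of those called are shown.
Psmd9, chr5:123228144-123228183, plus strand: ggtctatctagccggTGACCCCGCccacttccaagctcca
Psmb6, chr11:70525317-70525356, plus strand: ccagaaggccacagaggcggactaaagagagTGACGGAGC
The CCAAT box was in 33.3% of members' promoters and 33.8% of all promoters, and the interferon-stimulated response element in 3 of 45 (6.67%) and 2.98%. A match describes the letters in this window only. The Psmd9 window precedes a RefSeq start and lies inside the longer GENCODE span given for Psmd9 further on.

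Echs1 itself read 0.89, 4.32 and 4.25 FPKM in siEchs1 L2C, against 38.6, 39.2 and 24.4 FPKM in siCon L2C, and 0.71, 5.88 and 3.82 FPKM in siEchs1 E2C, against 30.5, 27.5 and 32.5 FPKM in siCon E2C. FPKM totals ran from 705511 to 1122231 and genes at 1 FPKM or more from 11982 to 16638 per library. The summed level of 14 oocyte marker genes was 21097 to 27321 FPKM in siEchs1 L2C and 1636 to 2274 FPKM in siCon L2C. It was 20396, 25619 and 5833 FPKM in siEchs1 E2C and 8475 to 9494 FPKM in siCon E2C. Mitochondrial RNA took 0.834% to 2.28% of the FPKM in siEchs1 L2C and 7.62% to 11.2% in siCon L2C, and 2.83%, 1.70% and 10.4% in siEchs1 E2C and 13.1% to 17.1% in siCon E2C. In both measures replicate 3 of siEchs1 E2C stood apart from replicates 1 and 2, and in mitochondrial RNA replicates 1 and 2 were the further from siCon. The counts and called members of the comparisons that use these libraries are given with and without replicate 3. The 10 two-cell marker genes, which early embryos switch on, summed to 438 to 600 FPKM in siEchs1 L2C, 1271 to 1811 FPKM in siCon L2C, 813 to 1138 FPKM in siEchs1 E2C, 2094 to 2209 FPKM in siCon E2C and 207 to 516 FPKM in the treatment libraries, so every group held them. Of 10 cumulus and granulosa markers, 6 were below 1 FPKM in every library.

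Most members were well expressed in every group. Of the 50, 46 averaged 1 FPKM or more in siEchs1 L2C, 48 in siCon L2C, 46 in siEchs1 E2C and 46 in siCon E2C. The treatment groups had 43 with crotonate, 43 with acetate and 40 with DMSO. The median over these members was 107 FPKM in siEchs1 L2C, 43.1 FPKM in siCon L2C, 92.3 FPKM in siEchs1 E2C and 31.8 FPKM in siCon E2C, while that over all genes at 1 FPKM or more was 10.6, 8.90, 8.99 and 7.40 FPKM. The most abundant member was Psma7, an alpha subunit, in both siEchs1 groups (629 FPKM at L2C and 859 FPKM at E2C), the lid subunit Psmd11 in siCon L2C (295 FPKM) and the beta subunit Psmb2 in siCon E2C (516 FPKM). The siRNA and treatment libraries were filed as separate experiments, so their levels are not compared by any test.

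**Figure D1:**
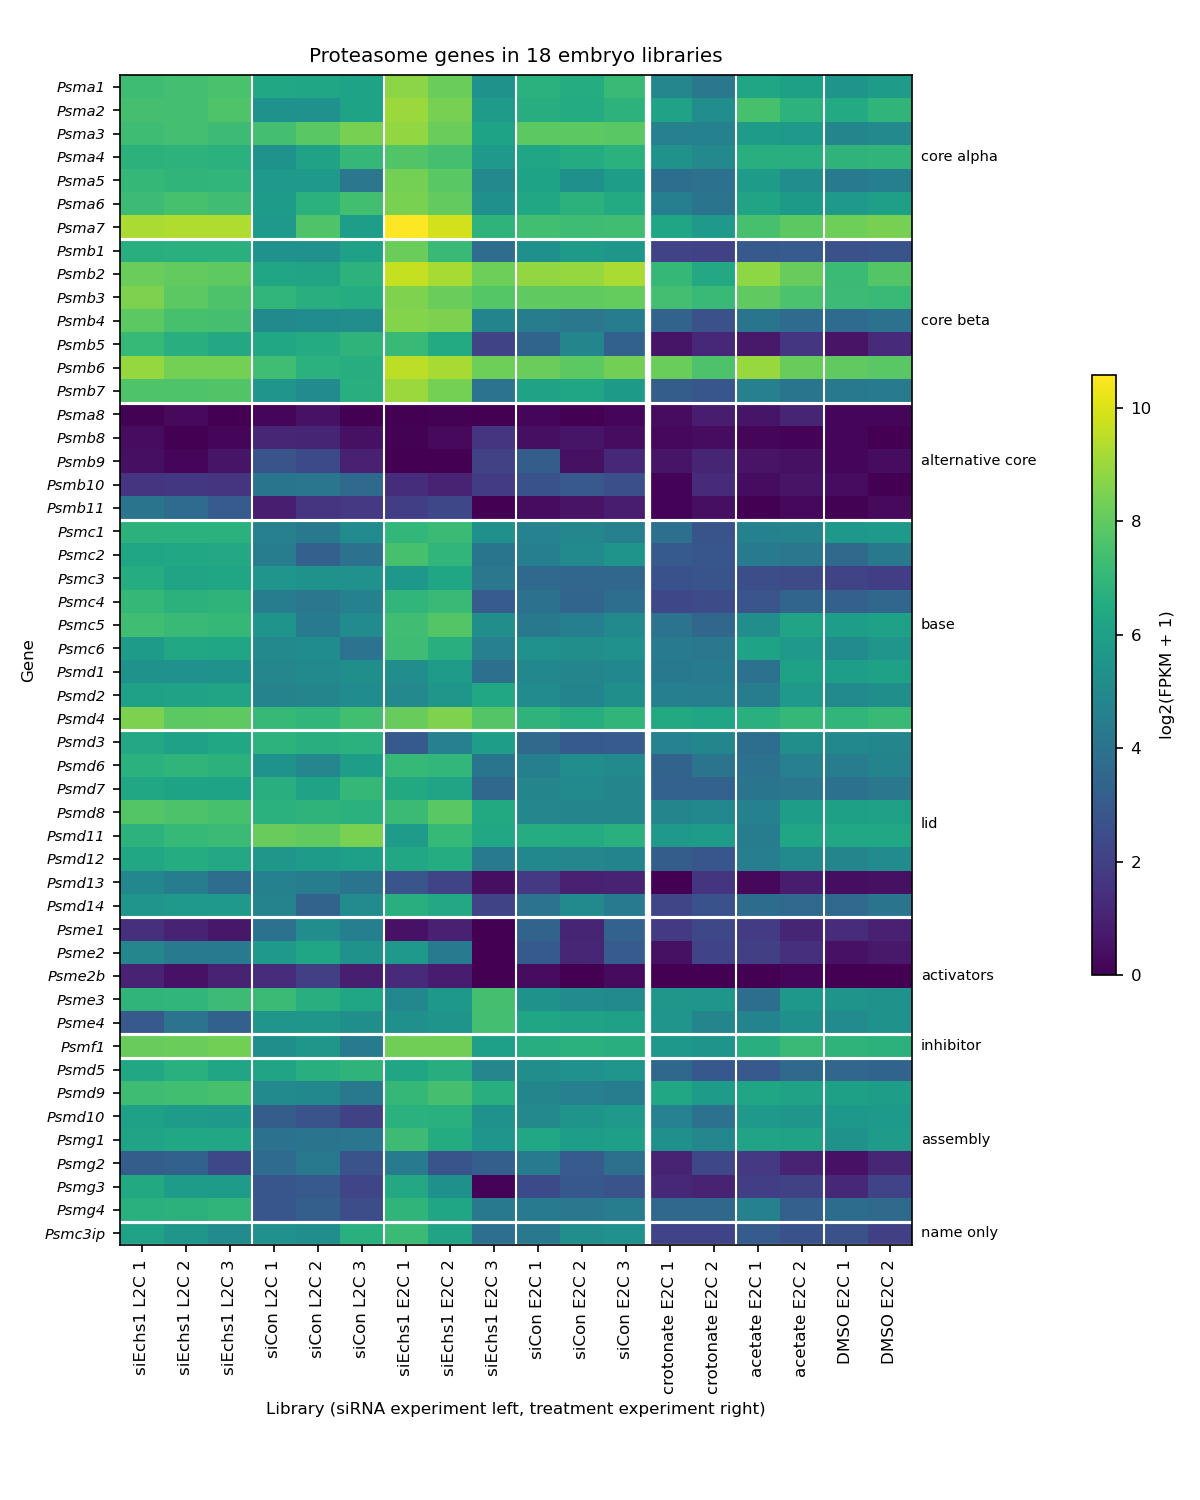
Level of each of the 50 members in each of the 18 libraries, as log2(FPKM + 1), with genes in rows by role, siRNA libraries on the left and treatment libraries on the right. Most core, base and lid rows are green to yellow (higher values), whereas the alternative core subunits Psma8, Psmb8, Psmb9 and Psmb11 are dark, near 0, in most libraries.

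Summed over the 14 standard core subunits, the level was 3055 ± 197 FPKM in siEchs1 L2C and 1256 ± 213 FPKM in siCon L2C (SD, n = 3 each). The 9 base genes summed to 988 ± 91.8 FPKM in siEchs1 L2C and 365 ± 38.3 FPKM in siCon L2C, and the 7 chaperones to 570 ± 9.17 and 168 ± 17.5 FPKM in the same groups. The lid summed to 743 ± 10.2 FPKM in siEchs1 L2C and 750 ± 109 FPKM in siCon L2C. Core, base and chaperone transcripts were thus higher in siEchs1 L2C than in siCon L2C in all libraries, and the lid sums were alike on average.

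At E2C the siEchs1 libraries were far apart, with core sums from 1290 to 7034 FPKM, against 2059 ± 140 FPKM in siCon E2C (SD, n = 3). Base sums ran from 448 to 1274 FPKM in siEchs1 E2C, against 316 ± 31.4 FPKM in siCon E2C, and lid sums from 274 to 770 FPKM, against 243 ± 11.8 FPKM. In the treatment libraries, the core summed to 756 ± 189 FPKM with crotonate, 1696 ± 364 FPKM with acetate and 1304 ± 101 FPKM with DMSO (SD, n = 2 each).

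**Figure D2:**
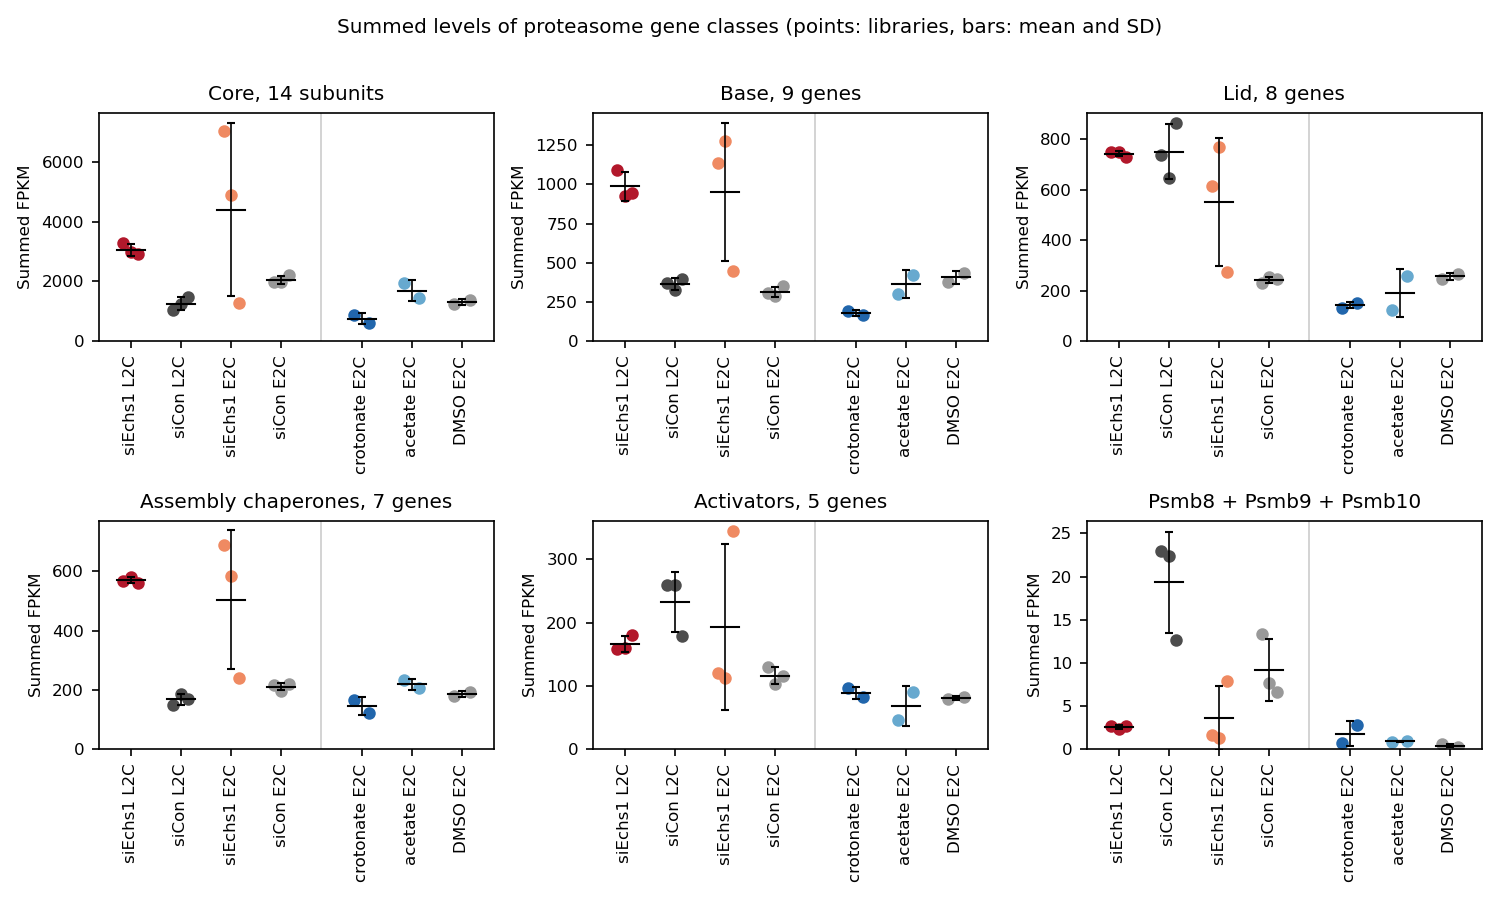
Summed FPKM of the members of 6 roles in each library (points), with the mean and SD of each group (bars), in 6 panels with siEchs1 left of siCon and crotonate and acetate left of DMSO. The siEchs1 L2C points lie above the siCon L2C points for core, base and chaperones and below them for Psmb8 + Psmb9 + Psmb10, and the siEchs1 E2C points are the most spread in all panels but that of Psmb8 + Psmb9 + Psmb10.

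Subunits of the same particle did not have equal transcript levels. The coefficient of variation over the 14 core subunits was 64.3% to 67.6% in siEchs1 L2C and 59.7% to 74.8% in siCon L2C. It was 62.5% to 114% in siEchs1 E2C and 89.5% to 99.9% in siCon E2C. Psmd4, the ubiquitin receptor, had the highest FPKM of the 9 base genes in all 18 libraries. Psmd13 had the lowest of the 8 lid genes in 17 of them. The active-site subunits differed widely at E2C, where siCon libraries held 9.5, 27.6 and 8.88 FPKM of Psmb5, 294, 242 and 320 FPKM of Psmb6 and 68.0, 74.7 and 53.6 FPKM of Psmb7. In the treatment libraries they lay further apart. Means of Psmb5, Psmb6 and Psmb7 were 0.925, 243 and 19.1 FPKM with DMSO and 0.87, 247 and 6.97 FPKM with crotonate. Levels are per length of transcript, as FPKM gives them.

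At L2C, siEchs1 against siCon, genes of the core, the base and the assembly chaperones were higher, and the activators Psme1 and Psme4, the lid subunit Psmd11 and the immunoproteasome subunit Psmb10 were lower. Of 49 members tested, 19 rose and 4 fell in limma's test at an adjusted p under 0.05, that is 38.8% and 8.16% of them, while 21.9% of all 17652 genes tested rose and 26.9% fell. All 3 siEchs1 libraries lay above all 3 siCon libraries for 30 members, where 30.5% of all genes did so, and below them for 8 members, where 32.6% of all genes did so. The median log2 difference was 1.05 over the members and -0.08 over all genes tested. The fit takes its spread from all 12 siRNA libraries, so siEchs1 E2C replicate 3 also enters the SE and p-values at L2C. Without that library, 29 members rose and 7 fell, and the shares of all genes in that fit are not given here. Higher were 4 alpha, 6 beta, 8 base and 4 lid genes, 5 chaperones, Psmf1 and 1 alternative subunit. Lower were 3 alternative subunits, 3 activators and 1 lid gene. Differences are on the log2(FPKM + 1) scale, which understates changes of low genes. In such bulk libraries, fewer cells of a kind and less RNA per cell cannot be told apart. The labels do not say that replicates came from separate collections, so p-values measure the spread between these tubes only. The oocyte marker genes moved in the same direction as the higher members, with 13 of 14 rising and none falling at L2C, while mitochondrial RNA was lower in every siEchs1 library. Their part in the result was not tested.

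Among the alpha subunits, which form the gated outer rings, 2 of 7 rose and none fell, and 4 had no overlap. Psma7 (chromosome 2, 180036374 to 180042433, minus strand, GRCm38) read 604, 638 and 643 FPKM in siEchs1 L2C, against 52.1, 202 and 60.2 FPKM in siCon L2C. The groups were apart although siCon replicate 2 was well above its group, and the difference was 2.85 (SE 0.76, adjusted p = 0.00827). Psma2 read 176, 170.0 and 204 FPKM in siEchs1 L2C, against 42.2, 39.6 and 68.6 FPKM in siCon L2C. It rose by 1.89 (SE 0.61, adjusted p = 0.0222), a call that ended when siEchs1 replicate 1 or 3 or siCon replicate 1 or 2 was left out (adjusted p up to 0.0689) and without the filter on low values (0.0548). Psma3 ran the other way in its values, with 155, 172 and 151 FPKM in siEchs1 L2C and 168, 235 and 343 FPKM in siCon L2C, and did not pass the test (adjusted p = 0.395).

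Of the 7 standard beta subunits, 4 rose and none fell. Psmb6, the caspase-like subunit, read 480.5, 326 and 325 FPKM in siEchs1 L2C, against 161, 107 and 94.3 FPKM in siCon L2C, and rose by 1.65 (SE 0.37, adjusted p = 0.00284). Psmb2, a subunit without an active site, read 290.4, 262 and 249 FPKM in siEchs1 L2C, against 73.7, 71.8 and 114 FPKM in siCon L2C, and rose by 1.64 (SE 0.36, adjusted p = 0.00247). Psmb3 rose by 1.29 (SE 0.31, adjusted p = 0.00434). None of the libraries of Psmb2, Psmb3 or Psmb6 overlapped between the groups. Psmb4 rose by 2.49 (SE 0.75, adjusted p = 0.0161), a call that ended without siEchs1 L2C replicate 1 (0.0512). The other active-site subunits did not pass: Psmb7, trypsin-like, read 202, 203 and 209 FPKM in siEchs1 L2C, against 44.1, 33.6 and 97.4 FPKM in siCon L2C (1.94, SE 0.95, adjusted p = 0.107), and Psmb5, chymotrypsin-like, read 135, 101 and 82.0 FPKM in siEchs1 L2C, against 77.2, 91.2 and 116 FPKM in siCon L2C (0.15, SE 0.96, adjusted p = 0.909). Psmb7 was higher in every siEchs1 library, and Psmb5 overlapped.

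Of the 4 alternative subunits tested, Psmb10 fell and Psmb11 rose. Psmb10, the immunoproteasome counterpart of Psmb7 (chromosome 8, 105935735 to 105938444, minus strand), read 2.11, 2.24 and 2.10 FPKM in siEchs1 L2C, against 16.1, 17.0 and 11.2 FPKM in siCon L2C. The groups were far apart, and the difference was -2.30 (SE 0.32, adjusted p = 0.000171). Psmb9, the counterpart of Psmb6, read 0.34, 0.11 and 0.52 FPKM in siEchs1 L2C, against 5.74, 4.24 and 0.94 FPKM in siCon L2C (-1.64, SE 0.71, adjusted p = 0.0731). Psmb8, the counterpart of Psmb5, was at most 0.27 FPKM in siEchs1 L2C and between 0.40 and 1.19 FPKM in siCon L2C (-0.75, SE 0.36, adjusted p = 0.0983). Both lay below siCon in all libraries without passing the test. Psmb9 shares 212 bases with Tap1 and Psmb8 shares 498 bases with Gm20496, and since no strand was kept those reads cannot be told apart.

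As a share of the summed FPKM of Psmb5 to Psmb10 with an active site, Psmb8, Psmb9 and Psmb10 made up 0.332%, 0.371% and 0.439% in siEchs1 L2C, against 7.53%, 8.80% and 3.92% in siCon L2C. At E2C the share was 0.120%, 0.126% and 2.39% in siEchs1, against 3.45%, 2.17% and 1.69% in siCon. Immunoproteasome genes are a usual mark of blood and immune cells, and that marker list moved with them: its summed level was 8.14 to 90.2 FPKM in siEchs1 L2C and 166 to 189 FPKM in siCon L2C. In that list, 4 of 6 tested genes fell and none rose, where 26.9% of all genes fell and 21.9% rose. The fall was led by Hba-a1 at up to 104 FPKM, while Ptprc, Hbb-bt and Alas2 were at most 0.26, 0.34 and 0.49 FPKM in any library. The summed oviduct markers were 5.46 to 37 FPKM in siEchs1 L2C and 128 to 188 FPKM in siCon L2C. Most of the siCon L2C sum was Epcam, at 92, 169 and 177 FPKM. Ovgp1, Foxj1 and Pax8 were at most 3.09, 1.55 and 0.29 FPKM in any library. Krt8 pointed the other way, with 16.6, 7.67 and 2.11 FPKM in siEchs1 L2C, against 4.37, 1.56 and 0.54 FPKM in siCon L2C, with overlap. The part of such cells in the result was not tested.

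Psmb11, the thymic beta subunit, read 15.8, 12.2 and 7.40 FPKM in siEchs1 L2C, against 0.84, 2.11 and 2.35 FPKM in siCon L2C, and rose by 2.20 (SE 0.53, adjusted p = 0.00472), or 0.0604 with a pseudocount of 0.1. Psma8, the testis form of an alpha subunit, reached 0.45 FPKM at most in the siRNA libraries and was below the filter.

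The base showed the most even change, with 9 of 9 genes above siCon in every siEchs1 library and 6 of them called higher. The ATPase Psmc1 read 109, 107 and 106 FPKM in siEchs1 L2C, against 23.2, 18.6 and 33.2 FPKM in siCon L2C, and rose by 2.10 (SE 0.44, adjusted p = 0.00203). Psmc2 rose by 2.43 (SE 0.69, adjusted p = 0.0113), Psmc5 by 2.19 (SE 0.55, adjusted p = 0.00587) and Psmc4 by 2.46 (SE 0.80, adjusted p = 0.0227). The call for Psmc4 ended when any of the siCon L2C libraries or siEchs1 L2C replicate 1 or 3 was left out (adjusted p up to 0.0653). Psmc3 (0.86, adjusted p = 0.11) and Psmc6 (1.39, adjusted p = 0.0536), also ATPases, did not pass.

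Among the scaffolds and receptors of the base, Psmd2 read 65.1, 68.2 and 71.7 FPKM in siEchs1 L2C, against 25.3, 27.1 and 34.1 FPKM in siCon L2C, and rose by 1.23 (SE 0.35, adjusted p = 0.0110). Psmd4 read 364, 236 and 249 FPKM in siEchs1 L2C, against 135, 124 and 166 FPKM in siCon L2C, and rose by 0.98 (SE 0.30, adjusted p = 0.0182). That call ended without siEchs1 replicate 1 (0.0784) or siCon replicate 1 or 2 (0.0505 and 0.0613). Psmd1, the other large scaffold, was at 42.5, 40.1 and 41.8 FPKM in siEchs1 L2C, against 28.7, 31.7 and 37.1 FPKM in siCon L2C, and did not pass (0.35, adjusted p = 0.50).

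In the lid, none of 8 genes rose and 1 fell, and the values pointed both ways. In the fit without siEchs1 E2C replicate 3, 4 lid genes rose and 1 fell. Psmd11 (chromosome 11, 80428615 to 80473248, plus strand) read 113, 134 and 145 FPKM in siEchs1 L2C, against 278, 253 and 352 FPKM in siCon L2C, and fell by 1.16 on the log2 scale (SE 0.33, adjusted p = 0.0113). Every siEchs1 library was below every siCon library. Psmd8, in contrast, had 214, 195 and 181 FPKM in siEchs1 L2C, against 108, 116 and 106 FPKM in siCon L2C, also without overlap (0.83, SE 0.34, adjusted p = 0.0587). Psmd14, the deubiquitinase, had 44.6, 50.2 and 51.2 FPKM in siEchs1 L2C, against 25.8, 9.41 and 33.6 FPKM in siCon L2C (1.22, SE 0.92, adjusted p = 0.288). Psmd3, at 83.1, 65.0 and 80.7 FPKM in siEchs1 L2C, against 114, 97.5 and 107 FPKM in siCon L2C, lay lower in every library and did not pass (-0.48, adjusted p = 0.494).

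The activators bind the ends of the core in place of the regulatory particle, and 2 of the 5 fell while none rose. Psme1, which forms the interferon-linked ring with Psme2, read 1.68, 0.99 and 0.62 FPKM in siEchs1 L2C, against 14.6, 35.4 and 23.0 FPKM in siCon L2C. The groups were widely separated, with a difference of -3.54 (SE 0.57, adjusted p = 0.000407). Psme4, which in mouse testis serves the breakdown of acetylated histones, read 6.67, 15.3 and 8.76 FPKM in siEchs1 L2C, against 45.1, 47.8 and 37.8 FPKM in siCon L2C, and the difference was -2.05 (SE 0.49, adjusted p = 0.00448).

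Psme2 and its near copy Psme2b, which can share reads, did not pass: Psme2 had 28.8, 19.1 and 19.1 FPKM in siEchs1 L2C, against 52.2, 74.5 and 40.8 FPKM in siCon L2C (-1.27, SE 1.07, adjusted p = 0.347). Psme3, the nuclear activator, had 120, 123 and 151 FPKM in siEchs1 L2C, against 146, 99.5 and 75.5 FPKM in siCon L2C, with overlap (0.34, SE 0.51, adjusted p = 0.610). Psmf1, which inhibits the core, moved against the activators. It read 275, 290 and 324 FPKM in siEchs1 L2C, against 37.3, 47.1 and 19.4 FPKM in siCon L2C, and rose by 3.14 (SE 0.54, adjusted p = 0.000607).

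Of the 7 chaperones that build the particles, 5 rose and none fell. Psmd9, a chaperone of the base (chromosome 5, 123169413 to 123250131, plus strand), read 157, 164 and 179 FPKM in siEchs1 L2C, against 32.1, 30.0 and 18.6 FPKM in siCon L2C. It rose by 2.62 (SE 0.31, adjusted p = 9.09e-05), the smallest adjusted p among the members, and shares 1849 bases with Gm26745. Psmd10, also a base chaperone, read 65.8, 56.8 and 51.3 FPKM in siEchs1 L2C, against 7.79, 5.59 and 3.16 FPKM in siCon L2C, and rose by 3.24 (SE 0.42, adjusted p = 0.000123). Both were well above siCon in every library.

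Psmg4, which pairs with Psmg3 in core assembly, read 103, 110 and 119 FPKM in siEchs1 L2C, against 6.19, 8.27 and 4.63 FPKM in siCon L2C. Its difference of 3.95 (SE 0.52, adjusted p = 0.000143) was the largest among the members in this comparison. Psmg3 read 85.0, 56.5 and 56.5 FPKM in siEchs1 L2C, against 6.10, 6.83 and 3.58 FPKM in siCon L2C, and rose by 3.38 (SE 1.14, adjusted p = 0.0273). Leaving out any L2C library ended the call for Psmg3 (adjusted p up to 0.0846), as did a pseudocount of 0.1 (0.0978) and no filter (0.0691). Psmg1 rose by 2.23 (SE 0.38, adjusted p = 0.000544), with 72.2, 80.4 and 79.7 FPKM in siEchs1 L2C, against 14.5, 15.8 and 17.0 FPKM in siCon L2C. Its partner Psmg2 did not move with it and overlapped, at 7.58, 8.77 and 3.95 FPKM in siEchs1 L2C, against 12, 18.6 and 5.45 FPKM in siCon L2C (-0.66, SE 0.53, adjusted p = 0.322). Psmd5, the remaining base chaperone, also overlapped (-0.16). Psmc3ip, the member by name only, had an overlapping 33.2 to 68.3 FPKM in siEchs1 L2C and 35.8 to 103 FPKM in siCon L2C.

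**Figure D3:**
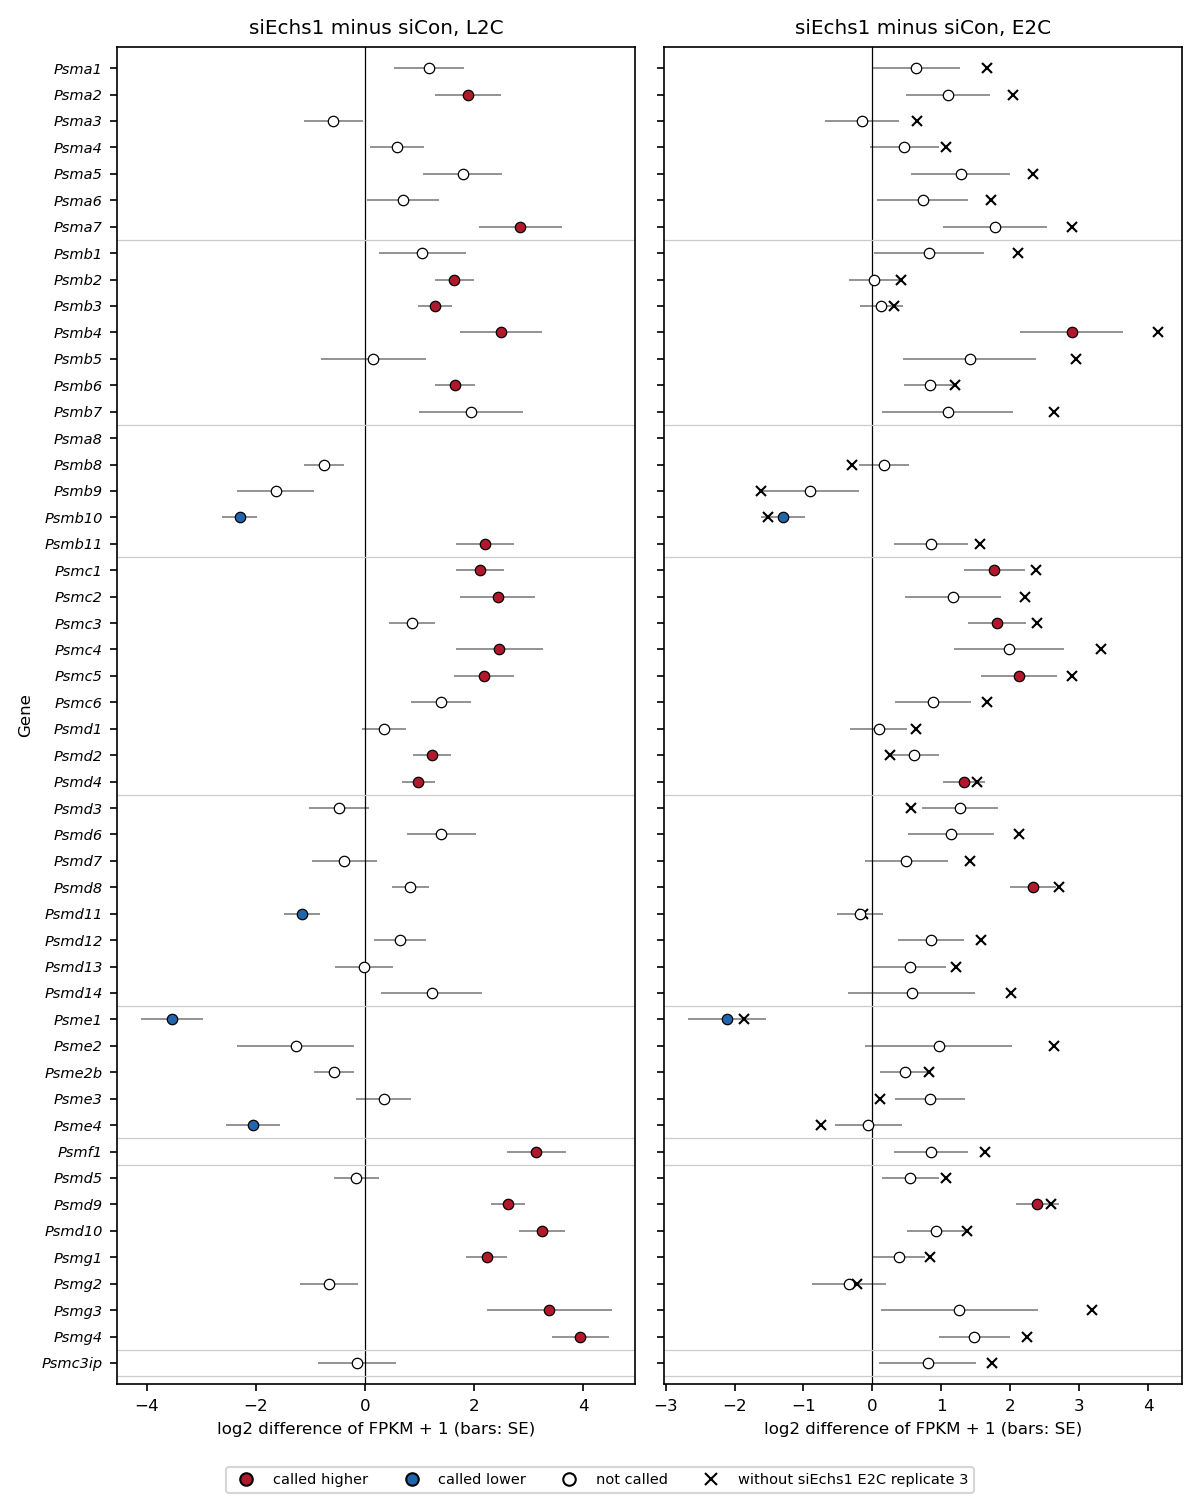
Log2 difference, siEchs1 minus siCon, of each tested member at L2C (left) and at E2C (right), with bars of 1 SE, red for called higher, blue for called lower and open symbols for not called. The crosses at E2C give the difference without siEchs1 E2C replicate 3. At L2C the chaperones, base genes and Psmf1 lie to the right and Psme1, Psmb10 and Psme4 to the left, and at E2C most crosses lie right of their symbols.

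Other genes of the pathway were followed in lists drawn up beside the members. Of 8 tested proteasome-associated genes, 3 rose and 2 fell at L2C, siEchs1 against siCon, where 21.9% of all genes rose and 26.9% fell. The same shares of all genes stand beside the lists that follow. Pomp, the maturation factor of the core, rose by 2.17 (SE 0.35, adjusted p = 0.000411) and Txnl1, a thioredoxin bound to the regulatory particle, by 1.63 (SE 0.28, adjusted p = 0.000613), while Ube3c, a ubiquitin ligase on the proteasome, fell by 1.87 (SE 0.38, adjusted p = 0.00176). Of 9 genes known to act on proteasome gene transcription, 1 rose and 3 fell. The enzyme Ngly1, which processes NFE2L1, rose by 1.99 (adjusted p = 0.000887), and the small Maf factor Mafk fell by 2.13 (adjusted p = 0.00162). Nfe2l1, the factor that drives proteasome genes when the proteasome is inhibited, fell by 1.41 (adjusted p = 0.0321), and that call ended without siEchs1 L2C replicate 2 or 3 or siCon L2C replicate 1 or 2 (adjusted p up to 0.107). Of 10 shuttle and unfolding genes, Nsfl1c, a cofactor of the unfoldase VCP, rose by 2.81 (adjusted p = 0.000187) and none fell. The 6 ubiquitin-supply genes gave no call. Of 6 tested antigen-processing genes, which act downstream of the immunoproteasome, 2 fell. They were the peptidase Erap1 (-1.78, adjusted p = 0.00316) and the peptide transporter Tap1 (-1.01, adjusted p = 0.0399), whose call ended in 10 of 18 alternatives (adjusted p up to 0.162).

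At E2C, siEchs1 against siCon, fewer members passed the test. Of the 7 that rose, 4 were base genes, and Psmb10 and Psme1 were the 2 that fell. Of 49 tested, 7 rose and 2 fell, 14.3% and 4.08%, where 11.0% of all genes tested rose and 9.31% fell. The same 7 and 2 members had no overlap between the groups, against 19.0% of all genes higher and 15.5% lower. These shares of members are near or below those of all genes. The median difference was 0.84 over the members and 0.15 over all genes. It was 0.37, 0.45 and 1.57 over the members when siEchs1 E2C replicate 1, 2 or 3 was left out. Of the 14 oocyte markers, 11 rose and 1 fell at E2C, and mitochondrial RNA was lower in siEchs1. Their part in the result was not tested.

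Psmd8, a lid subunit, read 148, 235 and 84.9 FPKM in siEchs1 E2C, against 28.4, 27.7 and 27.4 FPKM in siCon E2C, and rose by 2.33 (SE 0.34, adjusted p = 0.000978). Psmd9 read 129, 173 and 99.1 FPKM in siEchs1 E2C, against 27.6, 23.5 and 21.6 FPKM in siCon E2C, and rose by 2.39 (SE 0.31, adjusted p = 0.000514). Both stayed called under all 18 alternatives, and in both even the low replicate 3 of siEchs1 was above every siCon library. Without that replicate the differences were 2.7 (adjusted p = 7.27e-06) and 2.59 (adjusted p = 2.41e-05).

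The base genes Psmd4 (1.33, SE 0.30, adjusted p = 0.0101), Psmc3 (1.81, SE 0.42, adjusted p = 0.0112), Psmc1 (1.77, SE 0.44, adjusted p = 0.0152) and Psmc5 (2.13, SE 0.55, adjusted p = 0.0178) rose. Psmd4 read 273, 368 and 214 FPKM in siEchs1 E2C, against 115, 94.4 and 122 FPKM in siCon E2C, and Psmc3 read 49.5, 72.6 and 17.3 FPKM, against 11.2, 10.4 and 10.3 FPKM. None of these base genes passed in a fit of the E2C libraries alone. Adjusted p was then 0.0844 for Psmc3, 0.0569 for Psmd4, 0.0905 for Psmc1 and 0.097 for Psmc5. Psmc1 also lost its call without siEchs1 E2C replicate 2 (0.0681) or siCon E2C replicate 3 (0.0572). Psmc5 lost it without siEchs1 E2C replicate 1 (0.0511) or 2 (0.0793) or siCon E2C replicate 1 (0.0664) or 2 (0.0578). The core subunit Psmb4 read 387, 357 and 26.6 FPKM in siEchs1 E2C, against 21.5, 17.4 and 21.6 FPKM in siCon E2C, and rose by 2.89 (SE 0.75, adjusted p = 0.0184). Its call ended without siEchs1 E2C replicate 1 (0.0575) or 2 (0.0825) or siCon E2C replicate 2 (0.0623) or 3 (0.0545). It also ended in the fit of the E2C libraries alone (0.117). Without siEchs1 E2C replicate 3 the differences were 1.52 for Psmd4 (adjusted p = 0.000912), 2.39 for Psmc3 (2.31e-05), 2.38 for Psmc1 (3.54e-05), 2.89 for Psmc5 (4.3e-05) and 4.15 for Psmb4 (1.87e-07).

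Psmb10 read 1.63, 1.05 and 2.60 FPKM in siEchs1 E2C, against 5.27, 6.74 and 4.98 FPKM in siCon E2C, with a difference of -1.30 (SE 0.32, adjusted p = 0.0135), which did not pass without siEchs1 E2C replicate 2 (0.0598) or siCon E2C replicate 2 (0.0582). Psme1 read 0.43, 0.96 and 0.00 FPKM in siEchs1 E2C, against 9.44, 1.14 and 9.05 FPKM in siCon E2C, with a difference of -2.11 (SE 0.57, adjusted p = 0.0220), which did not pass without siCon E2C replicate 1 (0.0905) or 3 (0.0955). Neither gene passed in a fit of the E2C libraries alone (adjusted p = 0.0677 for Psmb10 and 0.0979 for Psme1). The blood and immune markers moved in the same direction here too, at 16.1 to 66.6 FPKM in siEchs1 E2C and 79.5 to 107 FPKM in siCon E2C, and their part was not tested.

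Much of the core hung on replicate 3 of siEchs1 E2C. For the 14 standard core subunits, 14 were above the siCon E2C range in replicate 1 and 13 in replicate 2, but 12 were below it in replicate 3. For the 17 base and lid genes, 14 were above in replicate 1 and 17 in replicate 2, while in replicate 3 there were 7 above and 10 below. Psma7 is an example, with 1526, 934 and 118 FPKM in siEchs1 E2C, against 166, 158 and 158 FPKM in siCon E2C (1.78, adjusted p = 0.117). Some members were high in that library: Psme4 had 39.0, 42.9 and 171 FPKM, Psme3 29.8, 48.8 and 174 FPKM, Psmd3 7.06, 23.5 and 60.0 FPKM and Psmd2 30.9, 47.0 and 80.4 FPKM in siEchs1 E2C.

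Without replicate 3, 34 of the 49 members rose at E2C and 2 fell, where 23.0% of all genes rose and 13.8% fell. The median difference in that fit was 1.57 over the 49 members and 0.12 over all genes. The 34 were 6 alpha subunits, 5 beta subunits, 7 base genes, 6 lid genes, 6 chaperones, Psmf1, Psme2, Psmb11 and Psmc3ip. The active-site subunits Psmb5 (2.95, adjusted p = 0.000172), Psmb6 (1.2, adjusted p = 0.00652) and Psmb7 (2.63, adjusted p = 0.000172) then rose, as did Psma7 (2.89, adjusted p = 0.000348), Psmf1 (1.63, adjusted p = 0.00154), Psmg4 (2.24, adjusted p = 9.5e-05) and Psmd14 (2.01, adjusted p = 0.00317). With all libraries these genes had adjusted p of 0.322, 0.126, 0.447, 0.117, 0.294, 0.0629 and 0.70. Psmb10 (-1.51, adjusted p = 0.00202) and Psme1 (-1.86, adjusted p = 0.0296) were lower either way. Psmb2 (0.41, adjusted p = 0.273) and Psmd11 (-0.14) did not pass either way.

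In the pathway lists at E2C, Adrm1, a ubiquitin receptor of the base whose name lies outside the pattern, rose by 2.25 (adjusted p = 0.00318). Uba1, the enzyme that activates ubiquitin, rose by 1.88 (adjusted p = 0.00449). Ddi2, of the transcription genes, rose by 1.45 (adjusted p = 0.0238). Of the shuttle genes, Ubqln1 rose by 1.26 (adjusted p = 0.0295) and Ubqln2 by 1.24 (adjusted p = 0.0274). The calls for Ddi2, Ubqln1 and Ubqln2 ended in a fit of the E2C libraries alone (adjusted p = 0.118, 0.102 and 0.077) and under quantile normalization. B2m, the light chain of class I antigen receptors, had a difference of -1.56 (adjusted p = 0.0146), which did not pass without siEchs1 E2C replicate 2 (0.0610) or siCon E2C replicate 1 (0.0553). It did not pass in a fit of the E2C libraries alone either (0.0556). No other gene of these lists was called with all libraries. Without siEchs1 E2C replicate 3 the differences were 2.70 for Adrm1 (adjusted p = 3.92e-05), 1.53 for Uba1 (0.00188) and -1.41 for B2m (0.0117). They were 0.95 for Ddi2 (0.0207), 0.92 for Ubqln1 (0.034) and 1.02 for Ubqln2 (0.0329). None of the 8 tested proteasome-associated genes passed at E2C, where 11.0% of all genes rose and 9.31% fell.

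Whether the siEchs1 difference itself changed between L2C and E2C was tested as the difference of both differences. Of 49 members, 4 had a larger value at L2C and 1 a smaller one, 8.16% and 2.04%, where 5.65% and 11.6% of all genes did. The first set was Psmd10 (2.32, SE 0.59, adjusted p = 0.0205), Psmg4 (2.47, SE 0.74, adjusted p = 0.0381), Psmg1 (1.84, SE 0.53, adjusted p = 0.0338) and Psmb2 (1.62, SE 0.50, adjusted p = 0.0434). Psmd8 had the smaller difference at L2C (-1.49, SE 0.48, adjusted p = 0.0496). Under quantile normalization 5 were larger and 0 smaller. Without siEchs1 E2C replicate 3 the counts were 5 larger and 10 smaller, where 7.30% and 15.7% of all genes were. The median over the members was 0.13 as reported and -0.55 without that replicate. Psmd10 (1.87, adjusted p = 0.0122), Psmg4 (1.71, 0.0107), Psmg1 (1.39, 0.0180), Psmb2 (1.24, 0.0295) and Psmd8 (-1.87, 0.00332) passed without it too. Psmf1 (2.30, adjusted p = 0.0571) and Psme4 (-1.99, adjusted p = 0.0662) did not pass.

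**Figure D4:**
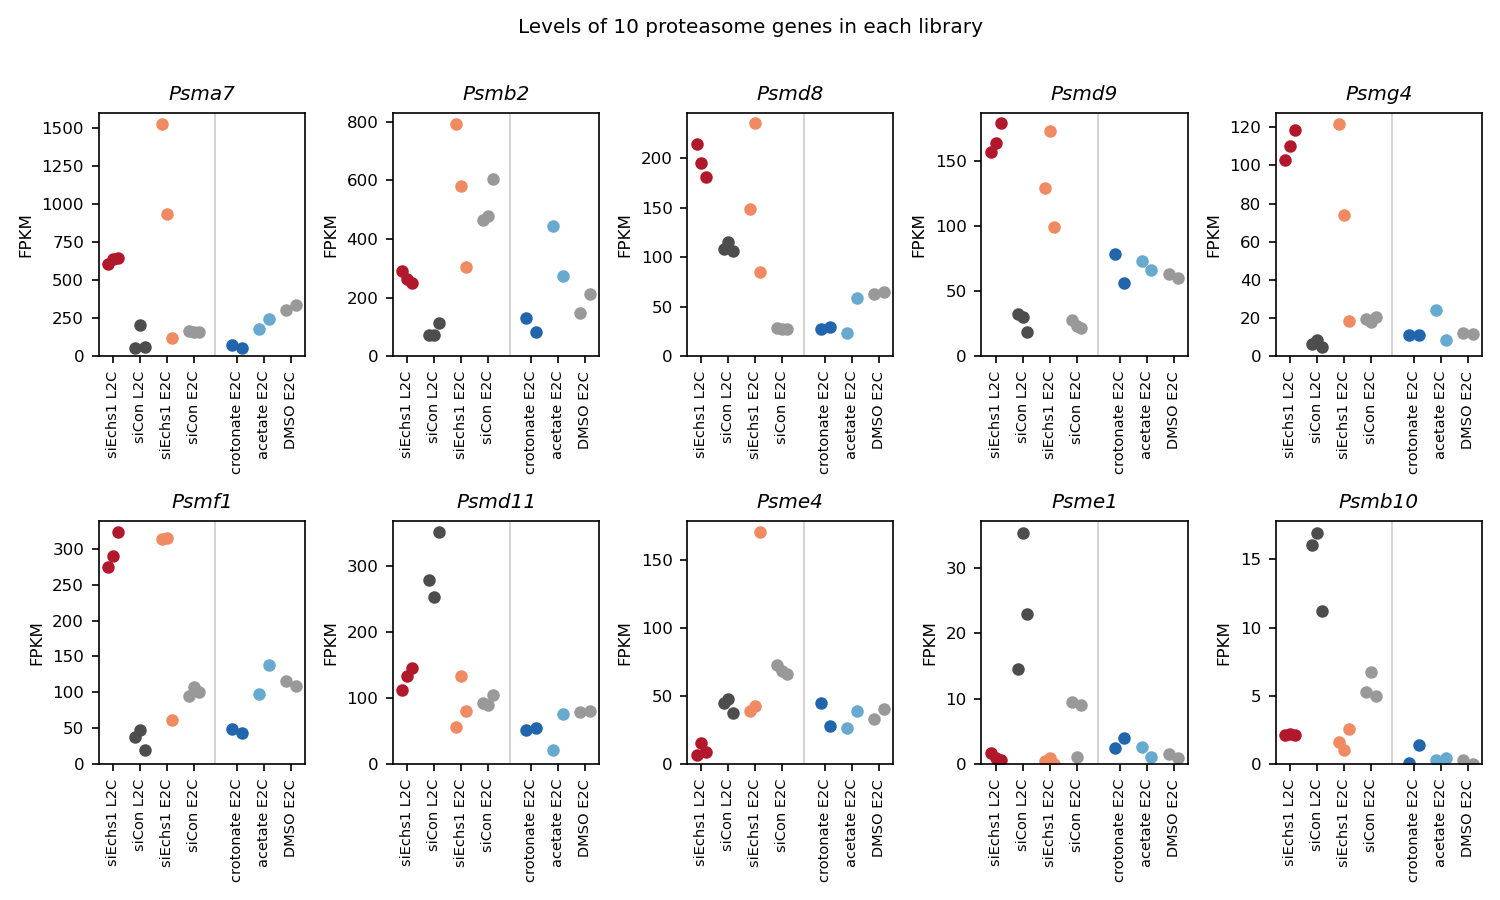
FPKM of 10 members (Psma7, Psmb2, Psmd8, Psmd9, Psmg4, Psmf1, Psmd11, Psme4, Psme1 and Psmb10) in each library, by group, with siEchs1 left of siCon and crotonate and acetate left of DMSO. Psmd9 is high in every siEchs1 library, Psme1 and Psmb10 are high in siCon L2C, and Psma7 has 1 low siEchs1 E2C point at 118 FPKM.

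In siCon embryos, L2C against E2C, 5 of 8 lid genes and 4 of 5 activators rose, while 3 of 7 standard beta subunits, 3 of 7 chaperones and the inhibitor Psmf1 fell. Of 49 members, 13 rose and 7 fell, 26.5% and 14.3%, where 35.8% of all genes rose and 14.4% fell. The libraries did not overlap for 18 members that were higher and 12 that were lower at L2C, against 42.8% and 21.0% of all genes. The share of members that rose was below that of all genes. The median difference was 0.12 over the members and 0.51 over all genes, and quantile normalization, which moves the median of all genes to -0.01, gave a median of -0.31 over the members and 7 members higher and 9 lower. This comparison uses the same siCon libraries as the siEchs1 comparisons above. The summed oocyte markers were 1636 to 2274 FPKM in siCon L2C and 8475 to 9494 FPKM in siCon E2C. The blood and immune markers summed to 166 to 189 FPKM in siCon L2C and 79.5 to 107 FPKM in siCon E2C, and the oviduct markers to 128 to 188 FPKM and 22.4 to 26.7 FPKM in the same groups. Epcam made up most of the oviduct sum in both groups, at 92, 169 and 177 FPKM in siCon L2C and 23.2, 20.6 and 20.5 FPKM in siCon E2C. The part of these lists in the result was not tested.

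Of the 8 lid genes, 5 rose and none fell. Psmd3 read 114, 97.5 and 107 FPKM in siCon L2C, against 11.6, 6.96 and 7.55 FPKM in siCon E2C, and rose by 3.49 (SE 0.55, adjusted p = 0.000251). Psmd13 read 24.2, 21.1 and 15.9 FPKM in siCon L2C, against 2.34, 0.94 and 1.10 FPKM in siCon E2C, and rose by 3.14 (SE 0.53, adjusted p = 0.000406). The 2 genes were the furthest apart among the lid genes, with no library near the other group. Psmd8 rose by 1.94 (SE 0.34, adjusted p = 0.000507), Psmd11 by 1.60 (SE 0.33, adjusted p = 0.00154) and Psmd7, the partner of the deubiquitinase Psmd14, by 1.70 (SE 0.60, adjusted p = 0.0317). The call for Psmd7 ended in 7 of 18 alternatives (adjusted p up to 0.105). Psmd13 shares 342 bases with Sirt3.

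Of the base genes, Psmc3 rose by 1.91 (SE 0.42, adjusted p = 0.00250), at 45.9, 42.3 and 39.9 FPKM in siCon L2C, against 11.2, 10.4 and 10.3 FPKM in siCon E2C, and none fell. Of the 5 activators, 4 rose. Psme2 had 52.2, 74.5 and 40.8 FPKM in siCon L2C, against 6.98, 1.2 and 7.19 FPKM in siCon E2C (3.40, SE 1.07, adjusted p = 0.0192), and Psme1 had 14.6, 35.4 and 23.0 FPKM, against 9.44, 1.14 and 9.05 FPKM (1.97, SE 0.57, adjusted p = 0.0122). Psme2b (1.19, adjusted p = 0.0153) and Psme3 (1.52, adjusted p = 0.0260) also rose. Without siCon L2C replicate 2 the calls for Psme1 (0.0542), Psme2 (0.0614) and Psme2b (0.0670) ended, and Psme2 (0.0803) and Psme2b (0.0557) did not pass without siCon E2C replicate 2. The call for Psme3 ended in 6 of 18 alternatives (adjusted p up to 0.123). Psme4 had 45.1, 47.8 and 37.8 FPKM in siCon L2C, against 73.1, 68.2 and 65.9 FPKM in siCon E2C, lower in every library, and did not pass (-0.66, adjusted p = 0.284).

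In the core, Psmb2 read 73.7, 71.8 and 114 FPKM in siCon L2C, against 466, 478 and 603 FPKM in siCon E2C, with a difference of -2.58 (SE 0.36, adjusted p = 0.000100). Psmb3 (-1.30, SE 0.31, adjusted p = 0.00368) and Psmb6 (-1.26, SE 0.37, adjusted p = 0.0121) also fell. Psmb5 went the other way, at 77.2, 91.2 and 116 FPKM in siCon L2C, against 9.5, 27.6 and 8.88 FPKM in siCon E2C, and rose by 2.72 (SE 0.96, adjusted p = 0.0319), a call that ended in 6 of 18 alternatives (adjusted p up to 0.0973). Psmb7 did not pass (-0.30, adjusted p = 0.816), and none of the alpha subunits passed. Psmb10 rose by 1.23 (SE 0.32, adjusted p = 0.00614), or 0.195 under quantile normalization.

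Of the chaperones, Psmd10 read 7.79, 5.59 and 3.16 FPKM in siCon L2C, against 30.1, 43.1 and 50.9 FPKM in siCon E2C, with a difference of -2.74 (SE 0.42, adjusted p = 0.000195). Psmg1 read 14.5, 15.8 and 17.0 FPKM in siCon L2C, against 77.5, 58.6 and 60.9 FPKM in siCon E2C, with a difference of -1.98 (SE 0.38, adjusted p = 0.000918). Both were below in every library. Psmg4 fell by 1.49 (SE 0.52, adjusted p = 0.0305), with its call ending in 6 of 18 alternatives (adjusted p up to 0.0974). Psmd5 rose by 1.2 (SE 0.41, adjusted p = 0.0282), a call that ended in 7 of 18 alternatives (adjusted p up to 0.0876). Psmf1 had 37.3, 47.1 and 19.4 FPKM in siCon L2C, against 95.4, 107 and 101 FPKM in siCon E2C (-1.61, SE 0.54, adjusted p = 0.0262), with its call ending in 5 of 18 alternatives (adjusted p up to 0.108).

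In the same comparison, the shuttle and unfolding list and the transcription list held larger shares of rising genes than the members. Of all genes, 35.8% rose and 14.4% fell. Of 10 shuttle and unfolding genes, 7 rose and none fell. The largest differences were those of Rad23b (3.37, adjusted p = 0.000235), Ubqln2, a ubiquitin shuttle (3.19, adjusted p = 2.26e-05), and Vcp, the unfoldase (2.66, adjusted p = 0.000107). Of 9 transcription genes, 6 rose and 1 fell, with Mafk at 3.88 (adjusted p = 2.41e-05) and Ngly1 at -1.45 (adjusted p = 0.00548). Adrm1 rose by 3.32 (adjusted p = 4.46e-05). Pomp fell by 1.30 (adjusted p = 0.00820).

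In siEchs1 embryos, L2C against E2C, 2 members rose and 1 fell, 4.08% and 2.04% of 49, where 11.8% of all genes rose and 2.73% fell. The libraries did not overlap for 3 members that were higher and 2 that were lower, against 22.9% and 8.07% of all genes. Psmd13 read 29.6, 20.8 and 12.6 FPKM in siEchs1 L2C, against 5.82, 3.45 and 0.37 FPKM in siEchs1 E2C, and rose by 2.59 (SE 0.53, adjusted p = 0.00717). Psmb11 read 15.8, 12.2 and 7.40 FPKM in siEchs1 L2C, against 2.89, 3.93 and 0.01 FPKM in siEchs1 E2C, and rose by 2.19 (SE 0.53, adjusted p = 0.0165). That call ended without siEchs1 L2C replicate 1 (0.0768) or 2 (0.0543) and with a pseudocount of 0.1 (0.0626). Psme4 read 6.67, 15.3 and 8.76 FPKM in siEchs1 L2C, against 39.0, 42.9 and 171 FPKM in siEchs1 E2C, with a difference of -2.65 (SE 0.49, adjusted p = 0.00426). Fitted on the siEchs1 libraries alone, none of the 3 passed. Without siEchs1 E2C replicate 3, 4 members rose and 7 fell, where 14.5% of all genes rose and 5.08% fell. The median over the members was 0.32 as reported and -0.22 without that replicate, beside 0.23 and 0.15 over all genes. The differences without it were 1.92 for Psmd13 (adjusted p = 0.00471), 1.49 for Psmb11 (0.0156) and -1.97 for Psme4 (0.00094).

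With sodium crotonate, the members were lower than with DMSO in most classes, and 1 passed the test. Of 43 members tested, none rose and 1 fell, where 0.210% of all 13789 genes tested rose and 0.319% fell. At an unadjusted p under 0.05, 20 of the 43 members were lower and 0 higher, where 10.6% of all genes were lower and 5.71% higher. Both crotonate libraries lay below both DMSO libraries for 30 of 43 members, 69.8%, where 38.4% of all genes did so, and above them for 3 members, Psmc3, Psme1 and Psme3, where 19.2% of all genes did so. The median difference was -0.75 over the members and -0.15 over all genes. The 30 members were 7 alpha, 4 beta, 8 base and 7 lid genes, 3 chaperones and Psmf1. The summed oocyte markers were 3909 to 4646 FPKM with crotonate and 5423 to 5516 FPKM with DMSO, and mitochondrial RNA took 16.7% to 19.8% with crotonate and 12.2% to 13.4% with DMSO. Their part in the result was not tested.

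Psma7 was the member that fell, with 73.8 and 50.8 FPKM in crotonate embryos, against 300.1 and 335 FPKM in DMSO embryos, a difference of -2.35 (SE 0.30, adjusted p = 0.0288). Its call ended without crotonate replicate 1 (0.145) or 2 (0.352), without DMSO replicate 1 (0.135) or 2 (0.275), and without the filter on low values (0.193). The ATPases Psmc1 (13.7 and 5.66 FPKM with crotonate, against 48.3 and 49.8 FPKM with DMSO, -2.34, adjusted p = 0.0575) and Psmc5 (15.5 and 10.4 FPKM, against 57.6 and 64.8 FPKM, -2.18, adjusted p = 0.0613) did not pass. The lid subunit Psmd12 had 7.58 and 6.13 FPKM with crotonate, against 26.9 and 33.3 FPKM with DMSO (-1.98, adjusted p = 0.0550), and Psma4 had 41.5 and 30.9 FPKM, against 116 and 119 FPKM (-1.69, adjusted p = 0.0534). In each of these the groups were well apart.

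Fitted on the crotonate and DMSO libraries alone, where 6.15% of all genes fell and 2.17% rose, 13 members fell: Psma4, Psma6, Psma7, Psmb7, Psmc1, Psmc5, Psmc6, Psmd1, Psmd8, Psmd12, Psmd14, Psmf1 and Psmd10. In the fit of all 6 libraries, Psmf1, with 48.8 and 43.3 FPKM with crotonate, against 117 and 109 FPKM with DMSO, had an adjusted p of 0.0936. Psmd14, with 3.63 and 5.40 FPKM, against 11.4 and 15.7 FPKM, and Psmd10, with 24.9 and 15.1 FPKM, against 48.4 and 50.3 FPKM, each had an adjusted p of 0.111.

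Members that did not follow included active-site subunits. Psmb6 read 296 and 198 FPKM with crotonate, against 252 and 234 FPKM with DMSO (-0.00, SE 0.36, adjusted p = 0.999), and Psmb3 read 169 and 137 FPKM, against 152 and 144 FPKM (0.04). Psmb5 was near 1 FPKM in both groups. Psme3 and Psme4 were at 48.0 and 46.3 FPKM and 45.0 and 28.3 FPKM with crotonate, against 43.6 and 40.8 FPKM and 33.5 and 40.7 FPKM with DMSO. Psmg3 (-0.50) overlapped between the groups, and Psmg4 (-0.11) was just below DMSO in both libraries, at 10.9 and 10.9 FPKM with crotonate, against 12.2 and 11.6 FPKM with DMSO. Of the alternative subunits, Psma8, Psmb8, Psmb9, Psmb10 and Psmb11 were below the filter in this experiment, with Psmd13 and Psme2b.

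**Figure D5:**
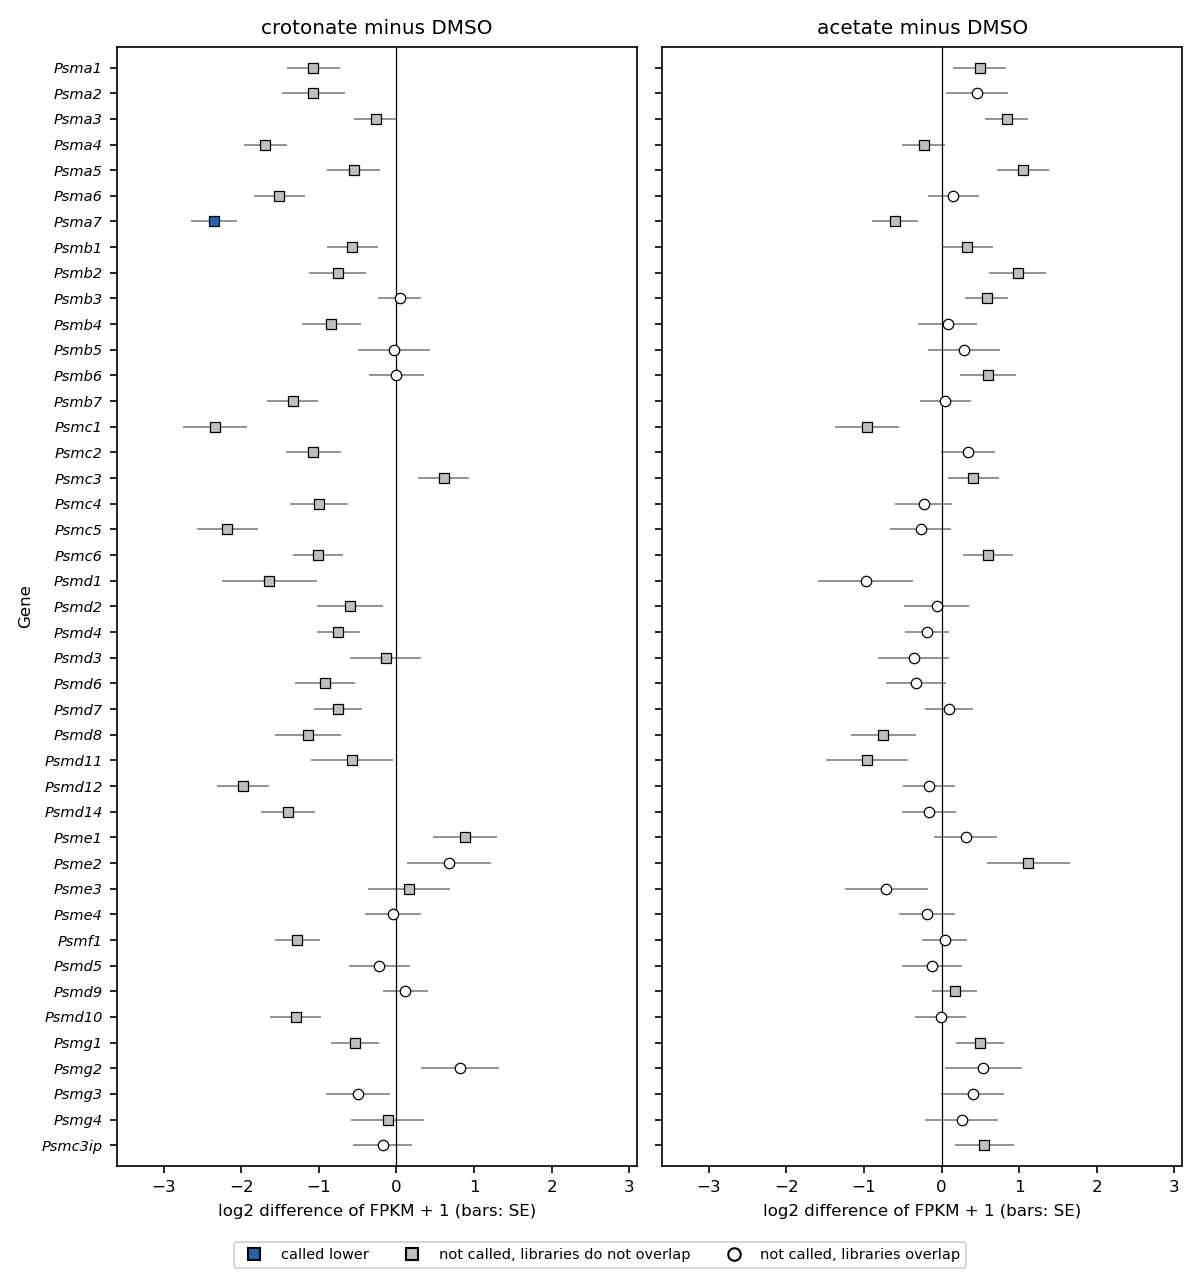
Log2 difference of each of the 43 tested members for crotonate minus DMSO (left) and acetate minus DMSO (right), both sharing the DMSO libraries, with bars of 1 SE. The blue square marks the called gene Psma7, grey squares mark genes whose libraries do not overlap and open circles those that overlap, and with crotonate 30 genes lie lower without overlap.

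With sodium acetate against the same DMSO libraries, no member passed, and the smallest adjusted p was 0.784, where 0.00725% of all genes rose and 0.0580% fell. At an unadjusted p under 0.05, 3 members were higher and 1 lower, where 2.97% and 2.99% of all genes were. The libraries did not overlap for 13 members higher and 5 lower with acetate, against 16.2% and 18.6% of all genes. The median difference was 0.10 over the members and -0.08 over all genes. Psma5 read 55.8 and 35.3 FPKM with acetate, against 19.0 and 23.0 FPKM with DMSO (1.05), and Psmb2 read 444 and 273 FPKM, against 146 and 211 FPKM (0.98), both above in each library.

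Acetate replicate 1 was low for a few members. Mitochondrial RNA took 20.7% of its FPKM and 11.9% in replicate 2, its FPKM total was 991022 and that of replicate 2 773684, and the part of either in these values was not tested. It had 14.3 FPKM of Psmd1, 23.8 FPKM of Psmd8, 21.2 FPKM of Psmd11 and 13.2 FPKM of Psme3, where replicate 2 had 65.5, 58.7, 76.5 and 48.5 FPKM and the DMSO libraries 58.8 and 64.9 FPKM of Psmd1, 63.2 and 64.6 FPKM of Psmd8, 79.0 and 79.9 FPKM of Psmd11 and 43.6 and 40.8 FPKM of Psme3. Without acetate replicate 2, these 4 genes fell and Psma5 rose (1.38, adjusted p = 0.0410), where 5.29% of all genes fell and 1.26% rose.

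The acids were compared at the same stage, although their doses are not given. Crotonate and acetate, the salts of short-chain fatty acids that differ in chain length and in the double bond of crotonate, differed for 3 members, all lower with crotonate, and none was higher, where 0.841% of all genes were lower and 1.02% higher. The libraries did not overlap for 26 members lower and 1 higher, against 27.6% and 17.9% of all genes. The median difference was -0.85 over the members and -0.09 over all genes. Psma7 read 73.8 and 50.8 FPKM with crotonate, against 181 and 242 FPKM with acetate (-1.76, SE 0.30, adjusted p = 0.0413). Psma4 read 41.5 and 30.9 FPKM with crotonate, against 98.7 and 101 FPKM with acetate (-1.45, adjusted p = 0.0493). Psmd12 read 7.58 and 6.13 FPKM with crotonate, against 22.1 and 32.4 FPKM with acetate (-1.83, adjusted p = 0.0457). All 7 alpha subunits were below in both crotonate libraries. The calls ended in 10 of 12 alternatives for Psma4 (adjusted p up to 0.416), and in 9 of 12 for Psma7 (up to 0.386) and Psmd12 (up to 0.406), among them a fit of these 4 libraries alone, the rescaled values and the loss of either crotonate library. Without acetate replicate 1 there were 11 members lower, where 3.87% of all genes were lower and 2.31% higher. Without replicate 2 there were 14 lower and 2 higher, Psmd11 and Psme3, where 5.23% and 5.11% of all genes were.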

How the data were processed

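Per the submitters' processing notes, cutadapt 1.16 trimmed the reads and STAR aligned them to mm10. The authors deposited FPKM per gene for each of the 18 libraries, and the program that made the FPKM is not given in the sources used here. Read depth could not be recovered from the FPKM values, so the depth behind each value is unknown. Per the labels' protocols, each tube held 5 to 10 embryos and sequencing was paired-end on cDNA made with oligo-dT primers. No strand was kept.

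The files list 55335 entries. Left out of the siRNA files were the 216 entries of 107 repeated symbols and 27 entries whose symbol had become a date, with some in both. Left out of the treatment files were the 212 entries of 105 repeated symbols, and 0 symbols there had become dates. The 55098 genes left in both experiments were used. Genes were placed with the GENCODE annotation of GRCm38, the assembly behind mm10. Groups came from the sample titles. In 2 siEchs1 L2C libraries the replicate number in the title differs from that in the file's header, and the title was used. Values were tested as log2(FPKM + 1) in limma 3.58.1 (R 4.3.3) with a variance trend and robust moderation, in separate fits of group means to the 12 siRNA and the 6 treatment libraries. Genes with at least 1 FPKM in 3 siRNA or 2 treatment libraries were kept, 17652 and 13789 genes. Calls use an adjusted p (Benjamini-Hochberg, over all genes of a fit) under 0.05, and libraries do not overlap when all of one group lie above or below all of the other. The design had provided for counts, and the FPKM test was used since the files hold no counts. The fit was tested on simulated data.

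Named members are up to 8 called members without overlap and with the smallest adjusted p in each comparison, the active-site, alternative, activator, inhibitor and core-chaperone genes, Psmd2, Psmd4, Psmd11 and Psmd14. Others are named where a count, a library or a promoter sequence is described. The members and the lists were chosen with earlier results of these data known. Same-numbered libraries had correlations of deviations from -0.101 to 0.160, so the numbers do not pair them. Alternatives were quantile normalization, rescaling without mitochondrial and ribosomal RNA, no filter, a pseudocount of 0.1, a replicate block, a fit of only the libraries compared and leaving out each library.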

Additional observations from a re-analysis of the deposited data

Results flagged for a closer look

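For 5 members the siEchs1 difference was not the same size at L2C and at E2C, by limma's test of the difference of both differences (adjusted p under 0.05 over all genes tested). Of the 49 members tested, 8.16% had a larger and 2.04% a smaller difference at L2C, where 5.65% and 11.6% of all genes did. Psmd10 had a value of 2.32 and was higher in 3 of 3 siEchs1 libraries at L2C and in 2 of 3 at E2C than any siCon library of the same stage. Its call ended in 2 of 17 alternatives, without the filter on low values (adjusted p = 0.0503) and without siCon E2C replicate 3 (0.0572).

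Psmg4 (2.47), Psmg1 (1.84) and Psmb2 (1.62) also had a larger difference at L2C, and Psmd8 (-1.49) a smaller one. Their calls ended in 10, 11, 12 and 15 of 17 alternatives, with adjusted p up to 0.0934, 0.0813, 0.108 and 0.115. The E2C libraries include siEchs1 E2C replicate 3, in which Psmg1 read 45.4 FPKM beside 151 and 91.2 FPKM in replicates 1 and 2 and Psmg4 read 18.7 FPKM beside 122 and 74.3 FPKM. Without that library the values were 1.87 for Psmd10 (adjusted p = 0.0122), 1.71 for Psmg4 (0.0107), 1.39 for Psmg1 (0.0180), 1.24 for Psmb2 (0.0295) and -1.87 for Psmd8 (0.00332), by limma's test.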

How the results depend on the processing

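With 2 or 3 libraries a group and no read depth in the files, the precision of single genes cannot be split into counting and embryo-to-embryo parts, and leaving out a treatment library leaves 1 that is assumed to vary like the others. In limma, a few variances near 0 were offset. For siEchs1 against siCon at E2C, 7 members rose as reported, 12 after rescaling without mitochondrial and ribosomal RNA, 2 with only the libraries compared, and 4 to 34 with each library left out. The 2 that fell became 1 without a filter, 0 with only the libraries compared and 1 to 2 with a library left out. At L2C, 19 rose (14 to 29 with a library left out, 29 without siEchs1 E2C replicate 3) and 4 fell (7 with only the libraries compared, 4 to 7 with a library left out). For the difference of both, 4 were larger (0 without a filter, 0 to 6 with a library left out) and 1 smaller (0 under quantile normalization, no filter, a pseudocount of 0.1 and the replicate block, 0 to 10 with a library left out). For L2C against E2C in siCon, 13 rose (7 under quantile normalization, 8 without a filter, 7 to 17 with a library left out) and 7 fell (5 to 10 over all alternatives). In siEchs1, 2 rose (1 with a pseudocount of 0.1, 0 with only the libraries compared, 1 to 4 with a library left out) and 1 fell (0 with only the libraries compared, 1 to 7 with a library left out). In that comparison Psmb1 ran from -1.0 to 1.19 and Psmb4 from -0.93 to 0.97 with a library left out, both turning lower without siEchs1 E2C replicate 3. For crotonate against DMSO, 1 fell (0 without a filter, 13 with only the libraries compared, 0 to 13 with a library left out) and 0 rose throughout. Acetate against DMSO gave 0 to 1 higher and 0 to 4 lower with a library left out, the 4 without acetate replicate 2. For crotonate against acetate, 3 were lower (1 under quantile normalization and a pseudocount of 0.1, and 0 after rescaling, without a filter, under the replicate block and with only the libraries compared; 0 to 14 with a library left out) and 0 higher (0 to 2). With the replicate number as a block, which the labels do not tie to a shared source, counts higher and lower were 7 and 2 at E2C, 21 and 4 at L2C, 3 and 0 for the difference, 13 and 7 in siCon, 2 and 1 in siEchs1, 0 and 1 for crotonate, and 0 and 0 for acetate and for crotonate against acetate. The median of all genes was 0.51 for L2C against E2C in siCon and -0.01 and 0.77 under quantile normalization and rescaling. It was 0.23, -0.06 and 0.31 in siEchs1, 0.15, 0.08 and 0.32 at E2C, -0.08, 0.03 and -0.07 at L2C, -0.21, 0.00 and -0.39 for the difference, -0.15, -0.01 and -0.15 for crotonate against DMSO, -0.08, -0.01 and -0.20 for acetate against DMSO, and -0.09, -0.04 and 0.03 for crotonate against acetate. The members' median turned to -0.31 under quantile normalization in siCon, to -0.13 after rescaling and -0.55 without siEchs1 E2C replicate 3 for the difference, to -0.22 without that library for L2C against E2C in siEchs1, and to -0.03 after rescaling and also without DMSO replicate 1 for acetate against DMSO. The cause of these changes was not tested.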
